A study of Mus musculus with 8 samples.

Results

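Respiratory complex I of the mitochondrial inner membrane was examined through 36 nuclear genes of its subunits, each measured by the non-control probes that carry its name on the array. All 36 were measured, by 55 probes, of which 52 gave a signal well above background on 4 or more arrays. They were set among 16016 genes tested. The data came from the tibialis anterior, a fast leg muscle, of 8 male mice of the C57BL/6 background aged 8 weeks. The 4 Prep1deltaSM mice had lost Prep1 in skeletal muscle, and the 4 Prep1f/+ mice, written as floxed over wild type, were their controls. The Cre driver and whether the controls carried Cre are not given in the sources used here. Each of 4 slides held 1 array of each genotype, and the comparison asks what loss of Prep1 does to the transcripts of complex I in this muscle.

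Complex I passes electrons from NADH to ubiquinone and pumps protons across the inner membrane. The N module binds NADH and holds the flavin, the Q module reduces ubiquinone, and the membrane arm carries the proton pumps. The pumps are built around subunits encoded in mitochondrial DNA, while accessory subunits wrap and stabilise the whole. Prep1, the product of Pknox1, belongs to the TALE homeodomain family of transcription factors. It binds DNA together with Pbx proteins at sites that hold the letters TGACAG.

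Levels are given as normalized log2 signal, the log2 intensity of a gene's brightest probe minus that of the array's 75th percentile, so that 0 is the level of that percentile. Differences are Prep1deltaSM minus Prep1f/+ on this log2 scale, with the standard error of limma's fit. Where signals of different probes are summed or set side by side, the values describe signal and not amounts of RNA. The number of arrays limits the precision. Between 23787 and 27123 spots per array were well above background. All 8 skeletal muscle markers listed, among them Acta1 and Ckm, were tested, 4 on the higher and 4 on the lower side, with a median difference of -0.02. One of them, the oxygen store Mb, was lower by limma's unadjusted p of 0.030 (difference -0.40, adjusted p = 0.27). Fewer cells of a type and less RNA per cell cannot be told apart in whole muscle. Pknox1 itself had normalized log2 signals of -1.84, -2.08, -2.28 and -1.96 in Prep1deltaSM muscles, against -0.09, -0.31, -0.21 and -0.51 in Prep1f/+ muscles. The groups did not overlap, and the difference of -1.76 ± 0.13 (SE, n = 4 each) had an adjusted p of 0.0072 by limma. Whether its probe reads the part that was deleted is not known, so it checks the labels only as far as that probe goes. Fitting the slides as blocks gave an adjusted p of 0.062.

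Several members carried overlapping or alternative probes, and a few probe sequences are shown because 2 of the results turn on them. Ndufs6, an accessory subunit of the N module that binds zinc, was read by 3 probes on chromosome 13 that share a stretch of 33 bases, in capitals here.
Ndufs6 A_51_P335077: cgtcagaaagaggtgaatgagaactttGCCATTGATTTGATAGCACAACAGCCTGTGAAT
Ndufs6 A_51_P375034: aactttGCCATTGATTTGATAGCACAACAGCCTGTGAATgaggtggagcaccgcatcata
Ndufs6 A_52_P685828: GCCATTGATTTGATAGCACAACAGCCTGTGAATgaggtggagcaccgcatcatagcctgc
Ndufv3, a small accessory subunit beside the flavin-binding core, was read by 3 probes on chromosome 17. The first of them matches both RefSeq transcripts of the gene (2 of 2), and each of the others matches 1, the same transcript for both.
Ndufv3 A_52_P170054, in both transcripts: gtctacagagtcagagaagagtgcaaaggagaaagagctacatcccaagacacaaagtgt
Ndufv3 A_52_P175897, in 1 transcript: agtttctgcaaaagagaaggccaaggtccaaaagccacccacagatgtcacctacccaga
Ndufv3 A_51_P140211, in 1 transcript: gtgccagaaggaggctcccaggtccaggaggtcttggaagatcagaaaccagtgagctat
Ndufv2, a core subunit of the N module with an iron-sulfur cluster, was represented by a probe of its RefSeq transcript.
Ndufv2 A_51_P261470: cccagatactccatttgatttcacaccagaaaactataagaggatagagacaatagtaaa
Ndufa10, an accessory subunit of the membrane arm related to nucleoside kinases, was likewise read by a probe of its RefSeq transcript.
Ndufa10 A_51_P272123: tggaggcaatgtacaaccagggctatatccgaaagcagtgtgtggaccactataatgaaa

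No complex I member differed by as much as 1.5-fold between the genotypes. The largest differences were a 1.22-fold higher Ndufv2 signal and a Ndufb11 signal at 0.828 of that in Prep1f/+ muscle. At an adjusted p of 0.05 over all genes (limma), 0 of 36 members passed, where 1 of the 16016 genes, Pknox1, did (0.00624%). At an unadjusted p under 0.05, 2 members were higher, against a background of 5.54% of all genes, and 1 was lower, against 10.3%. The first count is close to its background share, and the second lies below it. With slide as a block, 0 members were past an unadjusted p of 0.05 in either direction, where 5.71% of all genes were higher and 10.04% lower. By the brightest probe the same 3 members, Ndufv2, Ndufa10 and Ndufb11, were the ones whose groups did not overlap, 2 higher where 3.72% of all genes were, and 1 lower where 6.74% were. Of the 36, 8 lay on the higher side and 28 on the lower side, with a median difference of -0.09. All genes leaned the same way, with 5973 on the higher and 10043 on the lower side and a median of -0.07. The members' median was positive after quantile normalization, after normexp with quantile normalization (0.0046) and without slide 1, so no direction is given for the complex as a whole. It was also positive in the authors' values, which cover 28 members. Those values were kept only within 0.1 log2 of the quantile-normalized ones, so they are no separate support.

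In the main fit, by the brightest probe, the precision was enough to bound each gene. The bound is not claimed for other fits or probes. With slide as a block the SE of Ndufv2 was 0.12, and its second probe gave 0.40 ± 0.17 (SE). The standard errors of the main fit ran from 0.09 to 0.13, and every one of its 36 unadjusted 95% intervals lay inside a 1.5-fold change in either direction. The lowest bound of any interval was -0.50 and the highest 0.52. In 17 members the difference was under 0.1 in size, and in 33 the interval included 0.

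**Figure D1:**
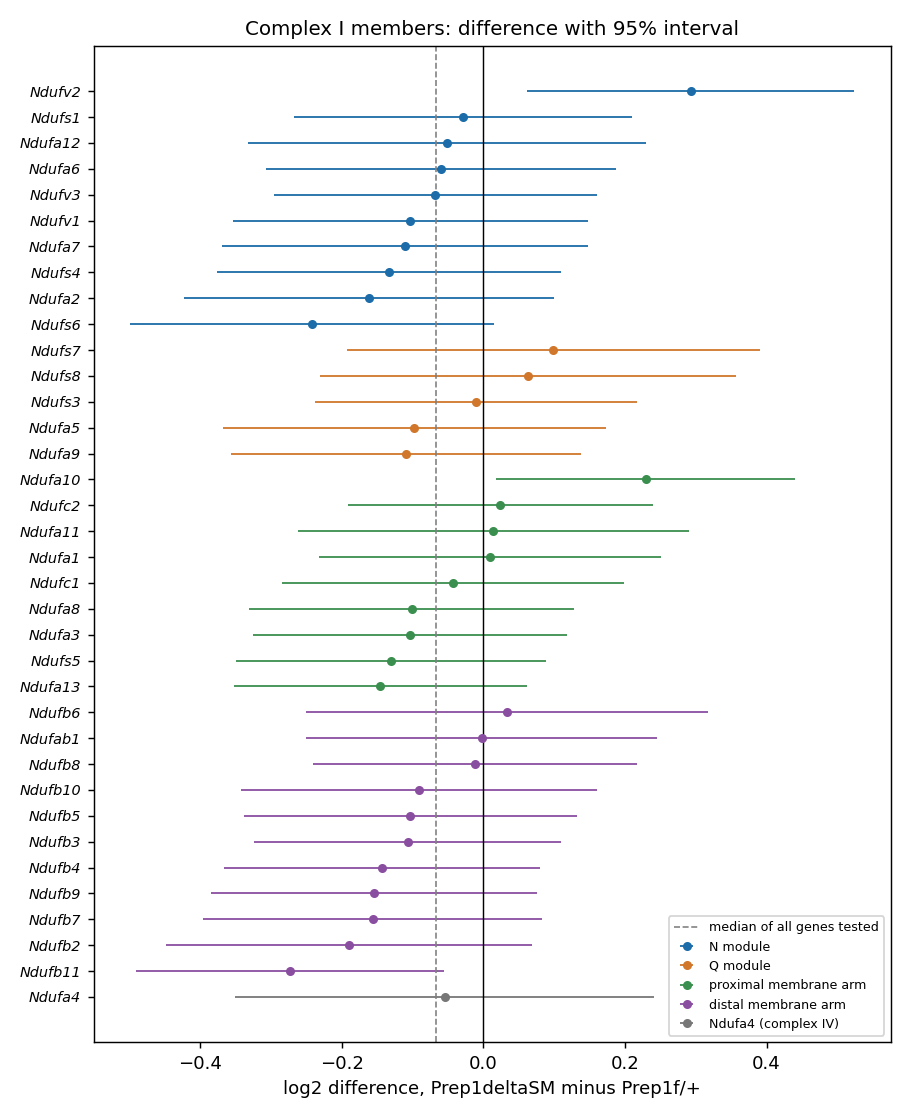
Log2 difference, Prep1deltaSM minus Prep1f/+, of the 36 complex I members (points) with unadjusted 95% intervals (bars), n = 4 muscles each, grouped by place in the complex. Of the points 8 lie above 0 and 28 below, around a median of -0.09. That median was positive after quantile normalization, after normexp with quantile normalization and without slide 1. The dashed line marks the median of all genes at -0.07.

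The N module oxidises NADH. Of its 10 measured members 1 lay on the higher and 9 on the lower side, with a median of -0.09, a split that was 5 and 5 after quantile normalization (median -0.0092). The member past an unadjusted p of 0.05 was Ndufv2. Its normalized log2 signal was 5.12, 5.51, 5.28 and 5.29 in Prep1deltaSM muscles, against 5.08, 5.07, 4.90 and 4.98 in Prep1f/+ muscles. All Prep1deltaSM values lay above all Prep1f/+ values, though replicate 1 of the Prep1deltaSM group was close to the controls. The difference was 0.29 ± 0.10 (SE, n = 4 each), with a 95% interval of 0.06 to 0.52 and an adjusted p of 0.24 by limma. The unadjusted p of 0.019 was 0.054 with slide as a block. The exact two-sided permutation p was 0.0286, the smallest that the 70 assignments allow. Within slides 1 to 4 the difference was 0.05, 0.61, 0.21 and 0.30. A second Ndufv2 probe, designed on a cDNA outside the RefSeq transcript, gave 0.40 ± 0.17 at a much weaker signal.

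The groups of the other core subunits of the N module overlapped. Ndufv1, the core subunit that binds the flavin and NADH, had 7.80, 8.10, 7.88 and 8.11 in Prep1deltaSM muscles, against 8.09, 8.16, 7.88 and 8.17 in Prep1f/+ muscles. The groups overlapped, and the difference was -0.10 ± 0.11 (SE, n = 4 each; adjusted p = 0.66, limma). Ndufs1, the largest core subunit, differed by -0.03 ± 0.10 (adjusted p = 0.92, limma), and its sign turned with quantile normalization. Ndufs6 had 7.05, 7.38, 7.20 and 7.48 in Prep1deltaSM muscles, against 7.49, 7.66, 7.43 and 7.49 in Prep1f/+ muscles. Its highest Prep1deltaSM value lay above the lowest Prep1f/+ value, so the groups overlapped, and the difference was -0.24 ± 0.11 (SE, n = 4 each; adjusted p = 0.34, limma). It was -0.15 after quantile normalization and -0.046 after normexp with quantile normalization. The 3 overlapping Ndufs6 probes printed above gave -0.23, -0.13 and -0.24 in the order shown. Ndufs4, an accessory subunit needed for a stable N module, differed by -0.13 and Ndufa2, which has a thioredoxin-like fold, by -0.16, neither past an unadjusted p of 0.05. Ndufa12 differed by -0.05 with its brightest probe and by 0.14 and 0.24 with the other two.

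Ndufv3 lies next to Pknox1 on chromosome 17, with no protein-coding RefSeq gene between them (order Wdr4, Ndufv3, Pknox1, Cbs). Its brightest probe, A_52_P170054 at 31658570 to 31658629 in mm9, lies 85.7 kb from the Pknox1 probe. Its normalized log2 signal was 5.16, 5.47, 5.22 and 5.39 in Prep1deltaSM muscles, against 5.25, 5.48, 5.42 and 5.34 in Prep1f/+ muscles. The groups overlapped, and the difference was -0.07 ± 0.10 (SE, n = 4 each; adjusted p = 0.76, limma). The 2 probes that match a single RefSeq transcript, the same one for both, gave opposite signs. A_51_P140211 differed by -0.31 ± 0.11, with -0.72, -0.56, -0.59 and -0.68 in Prep1deltaSM muscles, against -0.13, -0.19, -0.50 and -0.48 in Prep1f/+ muscles. A_52_P175897 differed by 0.22 ± 0.14, with -2.24, -1.96, -2.18 and -2.01 in Prep1deltaSM muscles, against -2.01, -2.19, -2.46 and -2.61 in Prep1f/+ muscles. The groups of A_51_P140211 did not overlap and those of A_52_P175897 did, and both probes gave a far weaker signal than the brightest one. With every probe fitted as its own feature the adjusted p values were 0.21 and 0.46 by limma. Ndufa7, an N module accessory subunit and the other member within 5 Mb of Pknox1, differed by -0.11 ± 0.11 (adjusted p = 0.65, limma), and its other probe by -0.02.

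**Figure D2:**
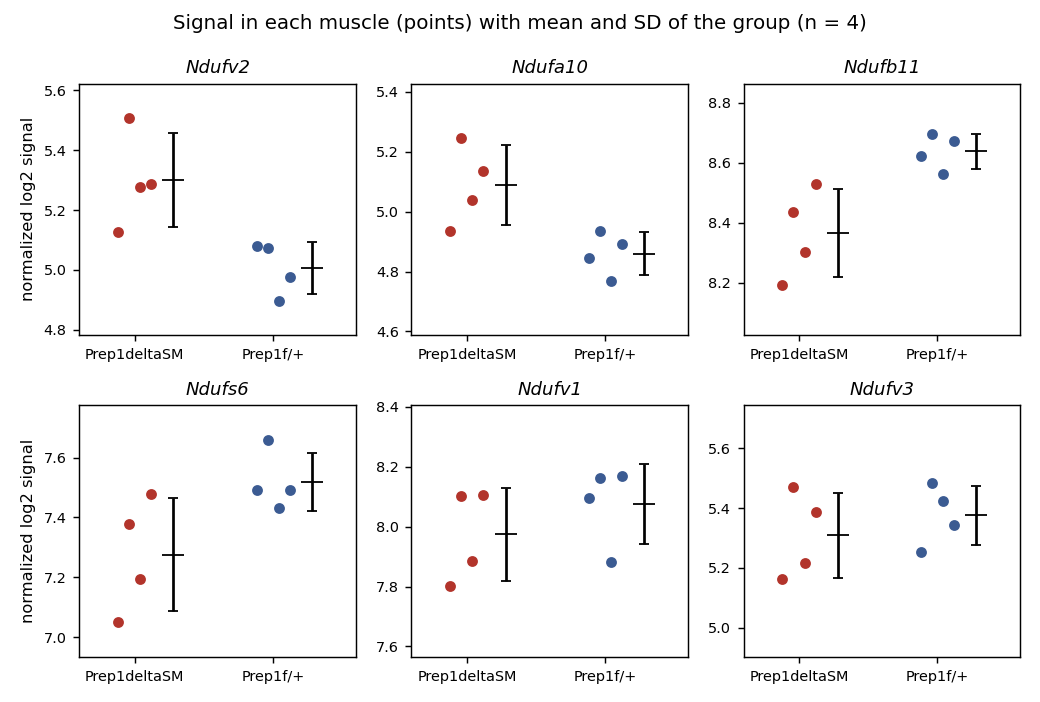
Normalized log2 signal of 6 members in each muscle, Prep1deltaSM on the left and Prep1f/+ on the right, with the group mean and SD (n = 4) beside the points, each panel spanning the same range on the log2 scale. Ndufv2 and Ndufa10 lie wholly higher and Ndufb11 wholly lower in Prep1deltaSM muscles, while the groups of Ndufs6, Ndufv1 and Ndufv3 overlap.

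The Q module hands electrons through iron-sulfur clusters to ubiquinone. Among its 5 members 2 lay on the higher and 3 on the lower side around a median of -0.01, with 0 past an unadjusted p of 0.05, and after quantile normalization all 5 lay on the higher side (median 0.09). Ndufs7, a core subunit that carries the last cluster of the chain, had 8.19, 8.49, 8.32 and 8.52 in Prep1deltaSM muscles, against 8.23, 8.57, 8.25 and 8.07 in Prep1f/+ muscles. The groups overlapped widely, and the difference was 0.10 ± 0.13 (SE, n = 4 each; adjusted p = 0.73, limma). It was 0.20 after quantile normalization and 0.024 with array weights. Ndufs8, a core subunit with iron-sulfur clusters, differed by 0.06 ± 0.13 and Ndufs3, a core subunit without one, by -0.01 ± 0.10. The signs of Ndufs8 and Ndufs3 turned under other settings. Ndufa5 and Ndufa9, accessory subunits, differed by -0.10 and -0.11. Over the 6 core subunits listed, 3 lay on either side of 0, around a median of 0.03.

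In the proximal part of the membrane arm, 4 of 9 members lay on the higher and 5 on the lower side, and the median was -0.04; after quantile normalization 7 lay on the higher side (median 0.057). Ndufa10 was the member past an unadjusted p of 0.05. It had 4.94, 5.25, 5.04 and 5.14 in Prep1deltaSM muscles, against 4.84, 4.93, 4.77 and 4.89 in Prep1f/+ muscles. The groups did not overlap, but the closest values, of Prep1deltaSM replicate 1 and Prep1f/+ replicate 2 on slide 1, were only 0.0027 apart. The difference was 0.23 ± 0.09 (SE, n = 4 each), with a 95% interval of 0.02 to 0.44 and an adjusted p of 0.28 by limma. The unadjusted p of 0.036 was 0.091 with slide as a block. Within slides 1 to 4 it was 0.0027, 0.48, 0.29 and 0.14. Ndufa13, also known as GRIM-19, had 9.69, 9.86, 9.80 and 9.93 in Prep1deltaSM muscles, against 9.90, 10.11, 9.88 and 9.98 in Prep1f/+ muscles, and differed by -0.15 ± 0.09 (adjusted p = 0.46, limma). The difference of Ndufa13 was -0.020 after quantile normalization. It was -0.029 in the authors' values, which were kept only where close to the quantile-normalized ones. The other 7 members of this part lay between -0.13 (Ndufs5) and 0.02 (Ndufc2).

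In the distal part of the membrane arm, 1 of 11 members lay on the higher and 10 on the lower side, with a median of -0.11; after quantile normalization the split was 5 and 6 (median -0.027). Ndufb11, an X-linked accessory subunit, had 8.19, 8.44, 8.30 and 8.53 in Prep1deltaSM muscles, against 8.62, 8.70, 8.56 and 8.67 in Prep1f/+ muscles. The highest Prep1deltaSM value stayed below the lowest Prep1f/+ value. The difference was -0.27 ± 0.09 (SE, n = 4 each), with a 95% interval of -0.49 to -0.06 and an adjusted p of 0.24 by limma. The unadjusted p of 0.020 was 0.052 with slide as a block. The difference was -0.50, -0.13, -0.09 and -0.37 within slides 1 to 4. Ndufb2, another accessory subunit, had 8.06, 8.38, 8.22 and 8.52 in Prep1deltaSM muscles, against 8.52, 8.57, 8.42 and 8.42 in Prep1f/+ muscles. The groups overlapped through Prep1deltaSM replicate 4, and the difference was -0.19 ± 0.11 (adjusted p = 0.43, limma), or -0.094 after quantile normalization. Ndufab1, the mitochondrial acyl carrier protein, differed by -0.0021 and Ndufb8 by -0.01, while Ndufb7, Ndufb9 and Ndufb4 differed by -0.16, -0.15 and -0.14. Ndufa4, which associates with complex IV despite its name, differed by -0.05.

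Among the members, 12 had more than 1 probe well above background. In 6 of these 12 all probes had 1 sign, among them Ndufv2 and Ndufs6. In the other 6, Ndufa1, Ndufa11, Ndufa12, Ndufa3, Ndufc1 and Ndufv3, the signs were opposite. For Ndufa1, Ndufa11 and Ndufc1 every probe differed by less than its SE, so their opposite signs show no disagreement between probes. Of the 55 probes 13 span an intron in mm9, and 8 members were represented by such a probe.

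**Figure D3:**
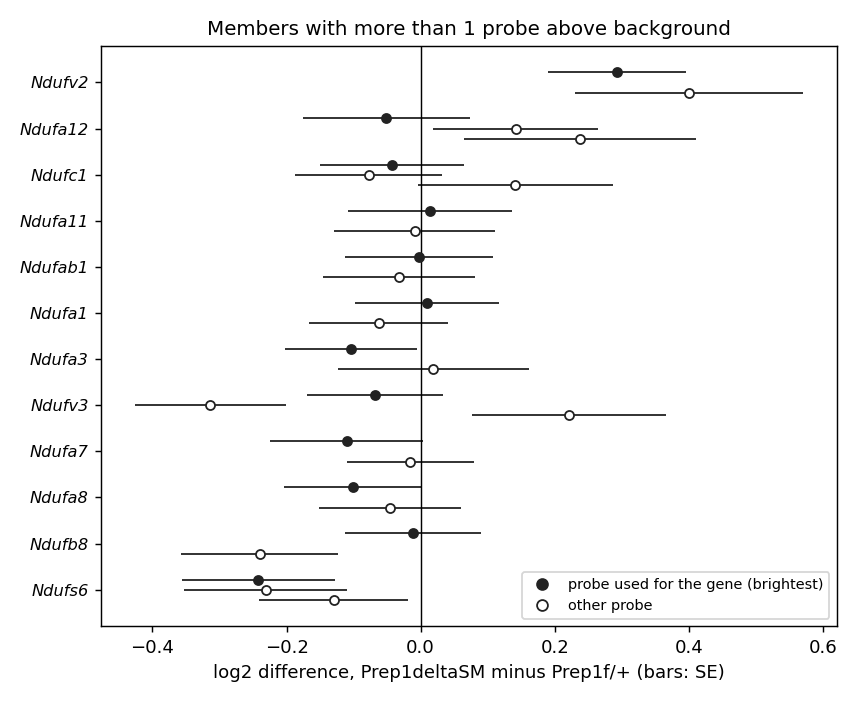
Log2 difference, Prep1deltaSM minus Prep1f/+, of each probe (points) with its SE (bars) for the 12 members that had more than 1 probe well above background, filled where the probe represented the gene. The 3 Ndufv3 probes lie at -0.31, -0.07 and 0.22, while both Ndufv2 probes lie above 0 and all 3 Ndufs6 probes below.

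The members varied together from muscle to muscle within both genotypes. The number of members above their own 8-muscle mean was 0, 27, 4 and 35 of 36 in Prep1deltaSM replicates 1 to 4, against 24, 34, 12 and 19 in Prep1f/+ replicates 1 to 4. Their mean deviation was -0.21, 0.06, -0.08 and 0.11 in the Prep1deltaSM muscles, against 0.03, 0.15, -0.04 and -0.02 in the Prep1f/+ muscles. Both groups thus held muscles with high and with low complex I signal. Prep1deltaSM replicate 1 was the lowest of all 8 muscles for 29 members, and Prep1f/+ replicate 2 was the highest for 19. These 2 arrays shared slide 1, where 34 members were lower in the Prep1deltaSM muscle and the median difference was -0.37. On slides 2, 3 and 4 the numbers lower were 10, 10 and 25, with medians of 0.10, 0.05 and -0.10. Ndufv2 and Ndufa10 were higher on all 4 slides, and Ndufa2, Ndufb11, Ndufb2 and Ndufs6 were lower on all 4. Some of these differences were near 0, with 0.0027 for Ndufa10 on slide 1. On slide 3 they were -0.0054 for Ndufa2, -0.0024 for Ndufb2 and -0.015 for Ndufs6. The share of all genes with 1 sign on all 4 slides is not given here, so these counts are no result about the members.

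The common movement depended on the scaling. After quantile normalization, 4, 30, 15 and 27 members lay above their mean in Prep1deltaSM replicates 1 to 4, against 12, 22, 15 and 18 in Prep1f/+ replicates 1 to 4. The mean deviation of Prep1deltaSM replicate 1 was then -0.06, and that of Prep1f/+ replicate 2 was 0.01. The 75th percentile of signal used for scaling was 190, 197, 193 and 165 in Prep1deltaSM replicates 1 to 4, against 165, 157, 197 and 139 in Prep1f/+ replicates 1 to 4. The part of this scaling in the common movement was not tested further.

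**Figure D4:**
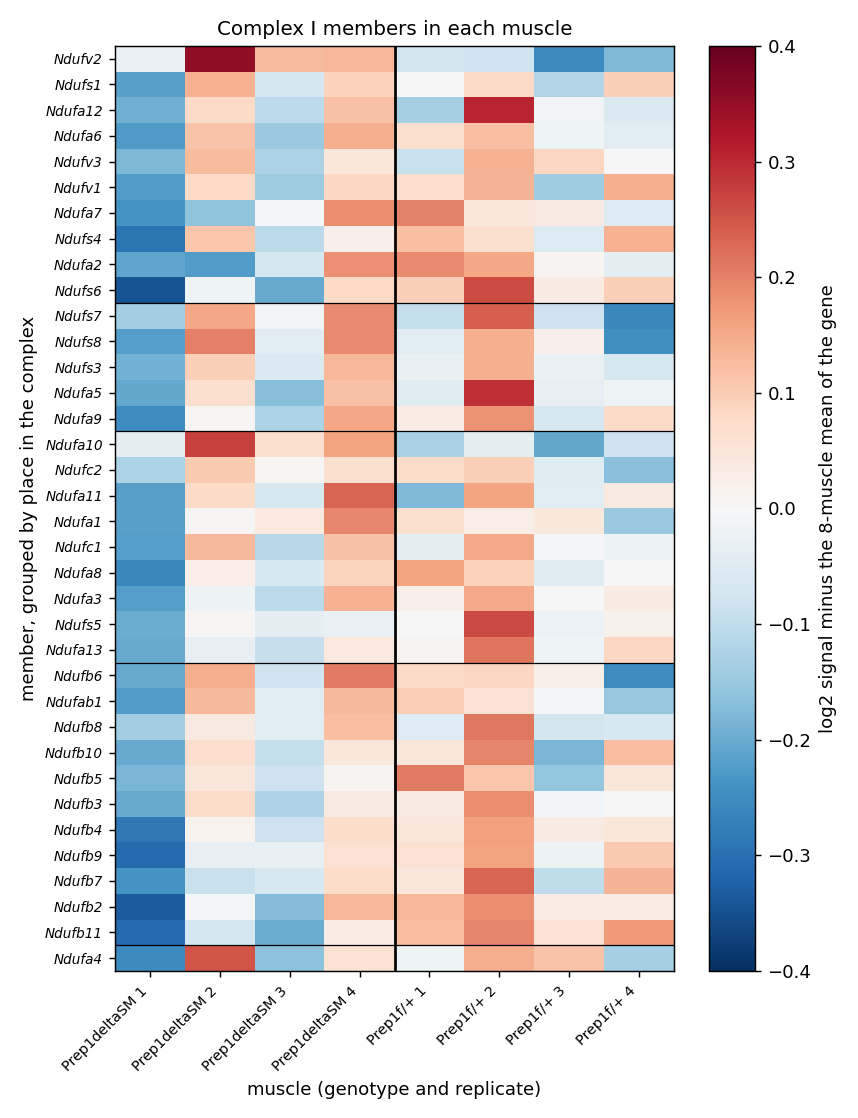
Deviation of each member's normalized log2 signal from its own mean over the 8 muscles (colour), with Prep1deltaSM muscles on the left and Prep1f/+ muscles on the right, members grouped by place in the complex. Prep1deltaSM replicate 1 has 0 of 36 members above their mean and Prep1f/+ replicate 2 has 34, a contrast that narrowed to 4 and 22 after quantile normalization.

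The spread between muscles was wider in the Prep1deltaSM group, with a median SD over members of 0.16, against 0.10 in the Prep1f/+ group, and 26 of 36 members had the larger SD in the Prep1deltaSM group. That order turned when each array was centred on the median of the 36 members, an alternative chosen after seeing the data. The median SD was then 0.05 in the Prep1deltaSM group, against 0.08 in the Prep1f/+ group, and 12 members had the larger SD in the Prep1deltaSM group, against 24 in the Prep1f/+ group. The same 3 members, whose groups did not overlap before the centring, did not overlap after it either. The centring uses the median of these same members and so removes their shared movement by construction, which makes it no separate support. The share of all genes without overlap after this centring is not given here. Ndufv2 differed by 0.37 ± 0.08 (adjusted p = 0.19, limma), Ndufa10 by 0.31 ± 0.08 (adjusted p = 0.21) and Ndufb11 by -0.20 ± 0.08 (adjusted p = 0.38). With this centring 7.88% of all genes were higher and 4.08% lower at an unadjusted p under 0.05, so the background moved as well.

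The other respiratory complexes moved from muscle to muscle in a similar way. In Prep1deltaSM replicate 1, 0 of 14 measured genes of complexes II and III, 0 of 13 of complex IV and 0 of 15 of ATP synthase lay above their own means. The pattern was partly shared by the 8 skeletal muscle markers. The number of them above their own mean was 1, 2, 4 and 7 in Prep1deltaSM replicates 1 to 4, against 4, 8, 1 and 4 in Prep1f/+ replicates 1 to 4. The genotype medians were -0.01 for complexes II and III (7 higher, 7 lower), -0.09 for complex IV (2 higher, 11 lower) and -0.05 for ATP synthase (5 higher, 10 lower). None of these differences between lists was tested. ND4, the mitochondrially encoded subunit that could be tested, 1 of 7 listed, differed by -0.14. Of 15 complex I assembly factors listed, 10 were tested, with 6 higher and 4 lower, a median of 0.01 and 0 past an unadjusted p of 0.05. Tmem126b, a membrane protein of an assembly intermediate, differed by 0.16 (adjusted p = 0.34, limma). Nubpl, which delivers iron-sulfur clusters, differed by -0.17 (adjusted p = 0.38, limma). The groups of both did not overlap, 1 of 10 factors higher where 3.72% of all genes were, and 1 lower where 6.74% were. Foxred1 differed by 0.15 and Ndufaf2 by -0.13.

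**Figure D5:**
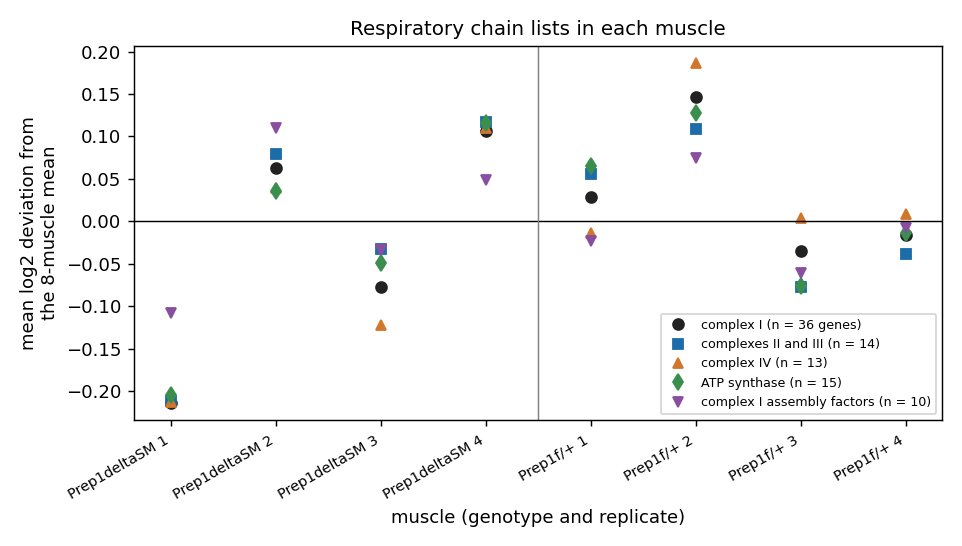
Mean log2 deviation from the 8-muscle mean for complex I, the other complexes of the chain and the assembly factors (symbols) in each Prep1deltaSM muscle on the left and each Prep1f/+ muscle on the right. All lists are lowest in Prep1deltaSM replicate 1 (complex I at -0.21) and complex I is highest in Prep1f/+ replicate 2 (0.15).

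Markers of fibre type and of other cells also differed between the muscles. All 8 slow fibre markers lay on the lower side in Prep1deltaSM muscle, with a median of -0.48 and 0 past an unadjusted p of 0.05. Their summed signal, in units of each array's 75th percentile, ran between 659 and 719 in Prep1deltaSM muscles and between 765 and 812 in Prep1f/+ muscles. Myl3, a slow light chain whose own groups overlapped, made up 86.4% to 97.3% of that sum. The other 7 markers summed to between 18.2 and 46.7 in Prep1deltaSM muscles and between 25.8 and 105 in Prep1f/+ muscles, which overlap. All 6 tested of 7 adipocyte markers lay on the lower side, with a median of -1.03. Fabp4, the brightest of them and not confined to adipocytes, made up 60.8% to 96.3% of their summed signal. The other 5, among them Adipoq and Plin1, summed to 52.6, 3.71, 53.3 and 5.36 in Prep1deltaSM replicates 1 to 4, against 19.5, 63.9, 67.0 and 11.4 in Prep1f/+ replicates 1 to 4. Within the Prep1deltaSM group the 2 muscles with the most adipocyte signal were those with the least complex I signal, an order that the Prep1f/+ group did not show.

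Markers of further cell types leaned with genotype in some lists and not in others. Among all genes 62.7% lay on the lower side. At an unadjusted p under 0.05 (limma) 10.3% of all genes were lower and 5.54% higher. The 5 endothelial markers were split, 2 higher and 3 lower (median -0.05, 1 past that p on each side). The 4 Schwann cell markers were 3 higher and 1 lower (median 0.14, 0 past it). Of 6 fibroblast markers 5 lay on the lower side, with a median of -0.38, and Dcn and Lum, both matrix proteoglycans, were past an unadjusted p of 0.05. Their summed signal, which overlapped, ran between 303 and 701 in Prep1deltaSM muscles and between 398 and 679 in Prep1f/+ muscles. All 5 tendon markers lay on the lower side (median -0.61, 1 past an unadjusted p of 0.05), and so did all 6 leukocyte markers tested (median -0.47, 2 past it). The leukocyte list held 9 names, some of them synonyms of 1 gene. These counts stand beside the 10.3% of all genes that were lower at that p. All 3 tested of 4 erythroid markers lay on the higher side, with a median of 1.03 and 0 past an unadjusted p of 0.05. Summed tendon signal ran between 7.54 and 16.6 in Prep1deltaSM muscles and between 13.4 and 19.7 in Prep1f/+ muscles. Summed leukocyte signal ran between 10.8 and 19.3 in Prep1deltaSM muscles and between 15.8 and 34.7 in Prep1f/+ muscles. For the erythroid markers the sums were 151 to 676 in Prep1deltaSM muscles and 93.8 to 355 in Prep1f/+ muscles. The part of these cells in the complex I values was not tested.

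Promoter windows of RefSeq, running from 250 bases before to 50 bases after a start site in GRCm38.p6, were found for 33 of the 36 members, 35 windows in all. The TGACAG letters, searched on both strands, occurred in 6 windows (17.1%), against 19.2% of all 32851 windows. The 6 genes were Ndufa5, Ndufab1, Ndufb10, Ndufb3, Ndufs5 and Ndufv2. The windows of Ndufv2, the member with the smallest p, and of Ndufv3, the neighbour of Pknox1, are shown with any TGACAG in capitals.
Ndufv2 promoter, chr17:66101510-66101809 (- strand, GRCm38.p6): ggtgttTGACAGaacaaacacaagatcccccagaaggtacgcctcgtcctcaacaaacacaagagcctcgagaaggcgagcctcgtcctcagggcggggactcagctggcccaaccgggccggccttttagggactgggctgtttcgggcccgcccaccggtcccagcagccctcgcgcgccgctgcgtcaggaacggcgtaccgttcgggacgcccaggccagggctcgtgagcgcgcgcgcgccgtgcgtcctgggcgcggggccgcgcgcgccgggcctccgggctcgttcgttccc
Ndufv3 promoter, chr17:31519865-31520164 (+ strand, GRCm38.p6): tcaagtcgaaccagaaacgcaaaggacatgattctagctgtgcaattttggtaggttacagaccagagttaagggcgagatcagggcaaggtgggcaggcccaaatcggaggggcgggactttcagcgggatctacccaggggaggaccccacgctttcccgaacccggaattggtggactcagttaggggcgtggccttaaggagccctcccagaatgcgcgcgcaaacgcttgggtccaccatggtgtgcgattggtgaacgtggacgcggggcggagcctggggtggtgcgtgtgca
The Ndufv2 window holds the letters once, at position -244 from the start site, and the Ndufv3 window does not hold them. Other motifs known from promoters of respiratory genes were also counted on both strands. The YY1 letters AAGATGGCG, which contain a start codon, occurred in 5 windows (14.3%), against 1.4% of all windows, in Ndufa9, Ndufc1, Ndufs4, Ndufs6 and Ndufs7. All 5 lay between 22 and 35 bases after the start site and on the strand of the gene. The NRF1 core GCGCATGC occurred in 3 windows (8.57%, against 2.71%) and the ETS letters CCGGAAG in 4 (11.4%, against 8.86%). The ERR letters TCAAGGTCA occurred in 0 windows, against 0.423% of all windows. A match is a description of the letters and not a measured site.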

How the data were processed

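Cy3-labelled RNA of each mouse was read on 1 Agilent array (design 014868). The deposited intensity of a spot came from Feature Extraction 10.5.1.1, per the file headers, after background subtraction and detrending and with arrays not yet normalized to each other; version 9.1 stands in the submitters' processing notes. The authors also deposited a linear, between-array normalized intensity table of 32812 rows (column medians 12.7 to 13.2); the 26226 rows within 0.1 log2 of quantile-normalized scanner values served as an alternative, which covers 28 members.

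From each log2 intensity the log2 of the array's 75th percentile over non-control spots was subtracted. Non-uniform spots (0 to 11 per array) were set missing, no spot was saturated, and spots of a probe were averaged. Probes well above background on at least 4 arrays were kept (24488 of 41174), and the brightest probe represented a gene. The test was limma 3.58.1 (lmFit, eBayes; R 4.3.3), adjusted by Benjamini-Hochberg over all 16016 genes; the fit was tested on simulated data. The members and gene lists were chosen with earlier results of these data known. Named members were those with the 4 smallest p in each direction, core subunits and members within 5 Mb of Pknox1; others are given as values of their place in the complex. Names are those of the array design, and positions are in mm9 unless GRCm38.p6 is stated. The labels do not pair the mice. Sequences of promoters are from RefSeq, and of probes from the deposited files; no sequence is printed for Ndufb11. The alternatives were 12 planned ones, 2 added after seeing the data and 8 with 1 array left out.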

Additional observations from a re-analysis of the deposited data

Results flagged for a closer look

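In each group of 4 muscles, the gap between an extreme muscle and its nearest neighbour was divided by the range of the group and compared with Dixon's critical value. Of 84 groups tested, 5 passed, where chance gives about 1 in 20, or 4.2. In all 5 the muscle was Prep1f/+ replicate 2, and it was the highest of its group. The share of the range taken by the gap was 0.911 for Ndufa5, 0.922 for Ndufb4, 0.917 for Ndufb8, 0.855 for Ndufc1 and 0.864 for Ndufs5. The normalized log2 signals of that muscle were 9.32 for Ndufa5, 8.43 for Ndufb4, 8.89 for Ndufb8, 8.44 for Ndufc1 and 9.28 for Ndufs5. The members moved together between muscles, so these 5 are not independent.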

How the results depend on the processing

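In every setting run, 0 members passed an adjusted p of 0.05; the smallest was 0.061, for Ndufv2 after normexp with quantile normalization. Ndufv2 stayed higher (0.22 to 0.38), Ndufa10 higher (0.18 to 0.31) and Ndufb11 lower (-0.33 to -0.18) in all 22 settings. Some settings, among them slide as a block and trended robust eBayes, returned the same difference, so they add no check of its sign. Of 36 members 15 had 1 sign in every setting that measured them, 3 higher and 12 lower. The share of all genes that did so is not given here, so the count is no result about the members. The number of members higher at an unadjusted p under 0.05, 2 in the report, was 4 after normexp with quantile normalization (6.89% of all genes), 1 with median centring (4.56%), without the filter (3.14%) or with array weights (6.04%), 0 with slide as a block (5.71%), and 0 to 2 with 1 array left out (4.00% to 5.79%). The number lower, 1 in the report, was 0 with slide as a block (10.04% of all genes) or without slide 1 (5.29%), 2 with trended robust eBayes (11.5%) or array weights (12.9%), and 0 to 4 with 1 array left out (0 without Prep1deltaSM replicate 1 or 3, with 7.35% and 8.59% of all genes, and 4 without Prep1deltaSM replicate 4, with 9.86%). The median difference of the members was 0.01 after quantile normalization, 0.01 without slide 1, and -0.12 to -0.04 with 1 array left out. It was 0.02 in the authors' values, which were kept only where close to the quantile-normalized ones. Pknox1 kept its direction but missed an adjusted p of 0.05 with slide as a block (-1.76, adjusted p = 0.062) and without slide 1 (-1.84, adjusted p = 0.19), where fewer residual degrees of freedom remain, and without Prep1deltaSM replicate 2, Prep1f/+ replicate 2 or Prep1f/+ replicate 3; with 1 array left out its difference ran between -1.84 and -1.68, and after normexp with quantile normalization it was -0.89. Signs of small differences turned, and the cause was not tested. After quantile normalization Ndufs1 was 0.065, Ndufs3 0.090 and Ndufv3 0.0044. After normexp with quantile normalization they were 0.024, 0.11 and 0.0022. In the authors' values Ndufv1 was 0.0039, Ndufs1 0.066 and Ndufs3 0.091. With centring on the members Ndufs1 was 0.049, Ndufs3 0.067 and Ndufv3 0.0095, and without slide 1 they were 0.061, 0.097 and 0.016. Ndufs8 was -0.015 with array weights. With 1 array left out Ndufs1 ran between -0.080 and 0.040, Ndufs3 between -0.055 and 0.051 and Ndufs8 between -0.0073 and 0.15. The labels number no mice across genotypes, so the slide was the one pairing of arrays that could be fitted.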
